A study of Mus musculus with 6 samples.

Results

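Blood clotting and its removal are steered in part by the endothelium, the cell layer that lines vessels. Its expression of 9 genes of this system was measured in endothelial cells (ECs) of MC38 tumors: Vwf, F8 and F3, which favour clotting, Thbd, Procr, Tfpi and Pros1, which restrain it, and Plat and Plaur, which act in the breakdown of fibrin. The members were taken by gene symbol as genes with known endothelial roles, and all 9 of 9 were found among the 24346 gene symbols measured. The samples were 3 from wild-type (WT) mice and 3 from Apelin-knockout (KO) mice, all C57BL/6 and 8 to 10 weeks old, which carried subcutaneous tumors of MC38, a mouse colon carcinoma line. The sample names also include saline in both genotypes. Saline was the vehicle of pump infusions elsewhere in the study, and whether these mice carried pumps is not given in the sources used here. The tumors were taken at day 19, digested, and sorted for cells with CD31 and without CD45. In the KO mice Apelin was missing from the whole host throughout life, not from ECs alone or from a set time on, and the inoculated MC38 cells were the same in both genotypes. Whether each sample is a separate mouse is not written in the labels, so the p-values measure the spread between these samples.

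As background, clotting starts when tissue factor, the product of F3, meets factor VII, and it grows with factor VIII as a cofactor, which travels in plasma bound to von Willebrand factor (VWF). Quiescent ECs hold this in check. Thrombomodulin (Thbd) and the endothelial protein C receptor (Procr) turn thrombin to the activation of protein C, for which protein S (Pros1) is a cofactor, and tissue factor pathway inhibitor (Tfpi) blocks the tissue factor complex. Tissue plasminogen activator (Plat) and the urokinase receptor (Plaur) promote the formation of plasmin, which dissolves fibrin. VWF is stored in the Weibel-Palade bodies of ECs and is widely used to mark the cell type.

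RNA levels are given as FPKM, read numbers scaled to transcript length and to the mapped reads of the sample, as the authors deposited them. The sums lay between 489396 and 529018 FPKM per sample, and the low values fitted an estimated 8940000 to 10160000 reads per sample. The knocked-out gene, Apln, was 432, 435 and 504 FPKM in WT and 9.96, 17.5 and 24.3 FPKM in Apelin-KO ECs, so the samples went with their labels. All 15 endothelial markers, Pecam1 and Cdh5 among them, were present. Macrophage markers were present as well, with a summed level of 188 to 717 FPKM in WT and 76.0 to 230.1 FPKM in Apelin-KO samples. Ptprc, which encodes CD45, was between 0.043 and 4.84 FPKM. The 10 platelet markers summed to 7.21 to 10.99 FPKM over the samples, with Pf4 at 3.91 to 8.72 FPKM, Itga2b at 0.889 to 1.51 FPKM, and Gp6 and Treml1 listed at 0 in all 6 samples. The 10 epithelial markers used for tumor cells summed to 7.97 to 21.1 FPKM, nearly all of it Krt20 at 6.41 to 20.6 FPKM, and Epcam was at most 0.264 FPKM. In such sorted populations, fewer cells of a type and less RNA per cell cannot be told apart.

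Between the genotypes, no member passed the test after adjustment, and Vwf and F8 were the members whose groups did not overlap. Vwf was higher in Apelin-KO ECs and F8 was higher in WT ECs. The test was limma's on log2(FPKM + 1), for genes whose mean reached 1 FPKM, and a positive difference means higher in WT. Of the 9 members, 8 passed this filter and F8 did not. None of the 8 had an adjusted p-value under 0.05 (limma, Benjamini-Hochberg over 10964 genes), where 0.00912% of all genes tested had one, and 1 of the 8, Vwf, had an unadjusted p-value under 0.05, against 9.42% of all genes. With each gene's own variance in place of the moderated one, 0 of the 8 passed either threshold. Of all 10964 genes, 783 then had an unadjusted p-value under 0.05 and 0 an adjusted one. The groups did not overlap for 1 of the 8, against 14.4% of all genes. In the direction of higher in WT, 0 of the 8 had an unadjusted p-value under 0.05, against 5.17% of all genes, and 0 of the 8 did not overlap, against 6.61%. A negative difference was found for 6 of the tested members and a positive one for 2, with a median of -0.05, beside -0.01 over all genes tested, of which 47.5% were above 0. On this scale the differences of weakly expressed genes come out smaller than the ratios of their FPKM.

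**Figure D1:**
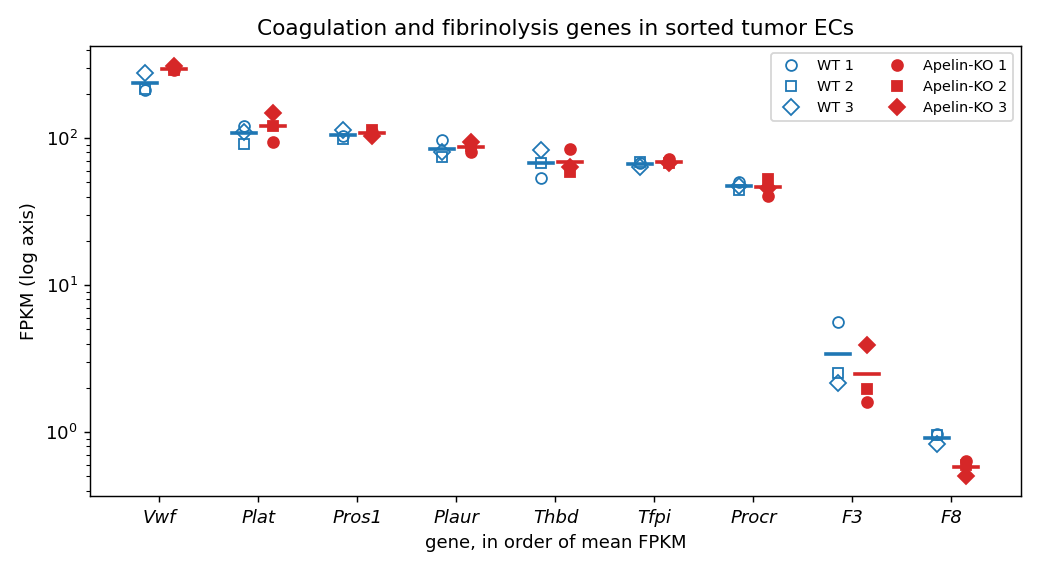
FPKM of the 9 genes (log axis) in 3 WT samples (open blue) and 3 Apelin-KO samples (filled red), with symbols for the sample number and bars for the group means. The 7 higher genes lie between 40.4 and 308 FPKM in every sample, F3 lies between 1.59 and 5.57, and F8 lies below 1.

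The levels of the members spread over more than 2 orders of magnitude. FPKM is scaled to transcript length, so levels of different genes can be set side by side. Vwf had the highest mean over the 6 samples, 266 FPKM, which was above that of 97.5% of the genes tested. Plat followed with 114.5 FPKM, Pros1 with 107 FPKM, Plaur with 85.7 FPKM, Thbd with 68.5 FPKM, Tfpi with 67.9 FPKM and Procr with 46.7 FPKM. F3 and F8 were far lower, at 2.95 and 0.749 FPKM. The order was read from these same 6 samples, so it is given as a description. In an exact sign-flip test of the 8 neighbouring pairs, the lowest Benjamini-Hochberg adjusted p-value was 0.05, so no pair fell under that threshold. Vwf lay above Plat, Pros1 above Plaur, Tfpi above Procr, Procr above F3, and F3 above F8 in 6 of 6 samples each. The order of the other neighbours differed between samples. Plat lay above Pros1 in 3 of 6 samples (ratio of the means 1.07), Plaur above Thbd in 4 of 6 (ratio 1.25), and Thbd above Tfpi in 2 of 6 (ratio 1.01), so these pairs do not differ beyond their spread. The step from Procr to F3 was 15.8-fold.

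Vwf, which encodes the adhesive protein that tethers platelets and carries factor VIII, is a plus-strand gene of chromosome 6, 125546774 to 125686679 in GRCm38, and its longest annotated transcript has 52 exons. It was 213, 216 and 279 FPKM in WT 1, 2 and 3, and 290.5, 289 and 308 FPKM in Apelin-KO 1, 2 and 3. WT 3 stood close to the Apelin-KO samples, and every Apelin-KO sample lay above every WT sample, as in 7.77% of all genes tested. The means were 236 ± 37.2 FPKM (SD, n = 3) and 296 ± 10.3 FPKM (SD, n = 3), so that Vwf in Apelin-KO ECs was 1.25 times that in WT ECs. The log2 difference was -0.34 (standard error 0.13, 95% interval -0.64 to -0.03, unadjusted p = 0.0368, adjusted p = 0.515 from limma), where 4.25% of all genes tested passed an unadjusted p-value under 0.05 in this direction. The unadjusted p-value stayed under 0.05 when WT 3 was left out, with a log2 difference of -0.46, and was above 0.05 when any of the other 5 samples was left out, with log2 differences from -0.35 to -0.27.

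The mean of other endothelial genes lay in a like order over the samples, while single genes differed. For the 15 endothelial markers the WT 1, 2 and 3 values of the mean log2(FPKM + 1) were 7.503, 7.36 and 7.64, and those of Apelin-KO 1, 2 and 3 were 7.76, 7.69 and 7.85. This mean also separated the genotypes, with WT 2 lowest and Apelin-KO 3 highest. All 15 markers had a negative log2 difference, with a median of -0.24, and 2 of the 15, Cdh5 and Clec14a, had one further from 0 than Vwf. The groups did not overlap for 4 of the 15, beside 14.4% of all genes tested, and Emcn and Erg were highest in WT 3. Pecam1, which encodes the CD31 used for sorting, was 553 to 671 FPKM in WT and 689 to 846 FPKM in Apelin-KO ECs. Relative to the mean of the markers in the same sample, the log2 level of Vwf was higher by 0.24 (WT 1), 0.40 (WT 2), 0.48 (WT 3), 0.43 (Apelin-KO 1), 0.49 (Apelin-KO 2) and 0.42 (Apelin-KO 3). These values overlapped between the genotypes, with a difference of -0.07 (p = 0.4 by a two-sided exact permutation test, which with these groups cannot go below 0.1). Centring on the markers adds the same amount to the difference of every gene, and it put the median of all genes tested at 0.25. The part that the share of endothelial RNA has in the difference of Vwf was not tested.

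**Figure D2:**
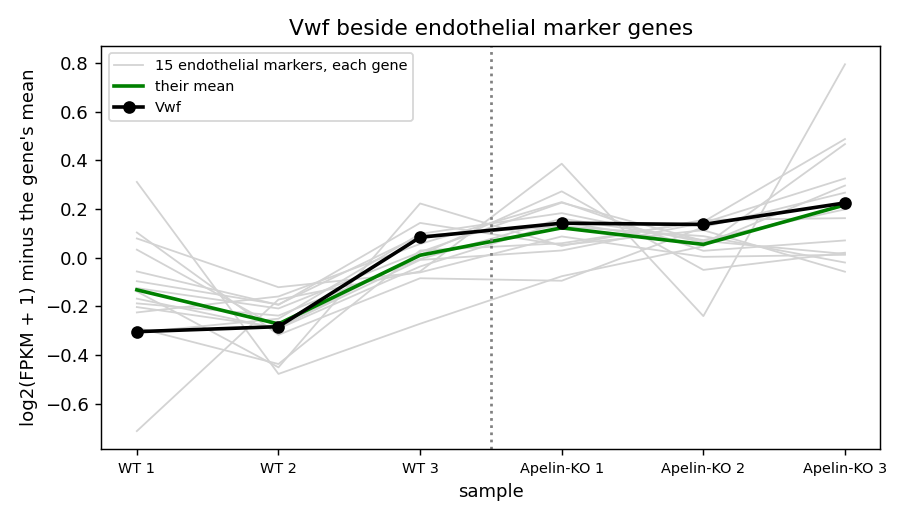
Log2(FPKM + 1) minus the gene's own mean over the 6 samples, for Vwf (black), each of 15 endothelial markers (grey) and the mean of the markers (green), with WT samples to the left of the dotted line. Vwf and the marker mean were both lowest in WT 1 and WT 2 and highest in Apelin-KO 3.

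Of all 10964 genes tested, the 3 whose pattern over the 6 samples came nearest to that of Vwf were Robo4, Gab1 and Prickle3. Their root mean square distances on the log2 scale, after each gene was centred on its own mean, were 0.0375, 0.0393 and 0.0411. Robo4, a receptor of endothelium and 1 of the 15 markers, was 179, 186 and 237 FPKM in WT 1, 2 and 3, and 251, 231 and 257 FPKM in Apelin-KO 1, 2 and 3.

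Genes that handle VWF were read beside it. Rab27a, a small GTPase of Weibel-Palade bodies, was 1.65, 2.25 and 1.79 FPKM in WT and 3.44, 2.45 and 2.55 FPKM in Apelin-KO ECs. As with Vwf, every Apelin-KO sample was higher. Its log2 difference was -0.39 (standard error 0.14, unadjusted p = 0.0259, adjusted p = 0.509 from limma). Selp, which encodes P-selectin, another cargo of these granules, differed by -0.32 (adjusted p = 0.687), and Cd63, a granule membrane protein, by 0.42 in the other direction (adjusted p = 0.586). Hps6, a factor of lysosome-related organelles, was 4.17 to 4.23 FPKM in WT and 3.11 to 3.97 FPKM in Apelin-KO ECs without overlap, and its log2 difference was 0.20 (adjusted p = 0.591). Adamts13, the protease that trims VWF, was at most 0.023 FPKM. Of the 5 tested genes of this list, 1 passed an unadjusted p-value under 0.05, beside 9.42% of all genes, 2 did not overlap between the groups, beside 14.4% of all genes, and the median difference was -0.05.

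F8, which encodes clotting factor VIII, is a minus-strand gene of chromosome X, 75172715 to 75382615. It was 0.968, 0.950 and 0.833 FPKM in WT 1, 2 and 3, and 0.639, 0.601 and 0.504 FPKM in Apelin-KO 1, 2 and 3. By the longest annotated transcript, of 9784 bases, about 93.4, 81.4 and 73.1 reads lay behind the WT values and about 57.0, 58.5 and 45.5 reads behind the Apelin-KO values. Every WT sample was higher than every Apelin-KO sample, opposite in direction to its carrier VWF. The means were 0.917 ± 0.0733 FPKM (SD, n = 3) and 0.581 ± 0.0696 FPKM (SD, n = 3), a ratio of 1.58. The difference of the mean log2(FPKM + 1) was 0.28 (p = 0.1 by the same two-sided exact permutation test, its lowest possible value). With its mean of 0.749 FPKM, F8 stood below the filter. Of all genes under the filter, 9.08% did not overlap in either direction and 6.71% lay higher in WT, and among the 902 genes with a mean from 0.5 to 1 FPKM, 10.4% lay higher in WT without overlap. In a limma fit without the filter, the unadjusted p was 0.00690 and the adjusted p 0.510.

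Leaving out any 1 sample kept the log2 difference of F8 between 0.24 and 0.31, and it was 0.58 with a pseudocount of 0.1. In the GENCODE annotation the first exon of F8 lies opposite the start of Fundc2, a mitochondrial membrane protein gene on the plus strand, over 217 bases from 75382399 to 75382615. The RefSeq start of F8 lies 2574 bases further inside the gene, at 75380041, and does not reach Fundc2. The libraries kept the strand, but the strand setting used for FPKM is not given in the sources used here. Fundc2 was 18.8, 19.6 and 20.1 FPKM in WT and 18.5, 16.96 and 20.2 FPKM in Apelin-KO ECs, with overlap and a log2 difference of 0.07 (adjusted p = 0.860 from limma).

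**Figure D3:**
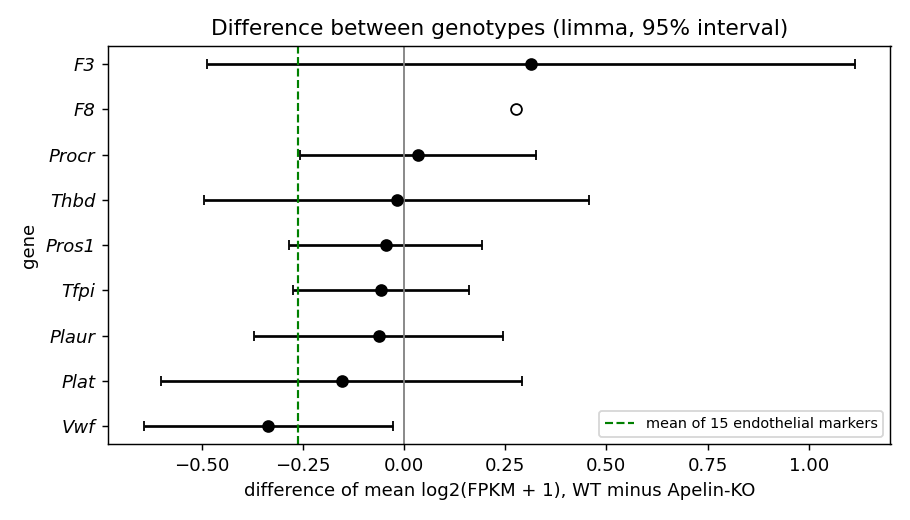
Difference of mean log2(FPKM + 1), WT minus Apelin-KO, for each gene, with 95% intervals from limma for the 8 tested genes; F8 (open circle) stood below the filter and has no interval. The interval of Vwf, from -0.64 to -0.03, ends on the negative side of 0, and the dashed line marks the mean difference of 15 endothelial markers, -0.26.

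Among the natural anticoagulants, Tfpi had the smallest spread. It lies on chromosome 2 from 84432855 to 84476775 and was 67.4, 68.6 and 63.8 FPKM in WT and 71.8, 67.9 and 68.0 FPKM in Apelin-KO ECs. The groups overlapped, and the highest sample was 1.13 times the lowest. Within the genotypes its standard deviation on the log2 scale was 0.050, and 1.95% of the genes tested varied less. The log2 difference was -0.06 (95% interval -0.27 to 0.16, adjusted p = 0.875 from limma), so that differences beyond a WT level 0.828 to 1.12 times that in Apelin-KO ECs lie outside the interval.

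Pros1, on chromosome 16 from 62854307 to 62929346, encodes protein S, which is also a ligand of the TAM receptor kinases. It was 104, 99.3 and 114.0 FPKM in WT and 109, 113 and 104 FPKM in Apelin-KO ECs. The groups overlapped widely, with a log2 difference of -0.05 (95% interval -0.28 to 0.19, adjusted p = 0.908 from limma). Procr, on chromosome 2 from 155751117 to 155755471, was 50.0, 44.4 and 47.1 FPKM in WT and 40.4, 52.4 and 45.7 FPKM in Apelin-KO ECs. Both the lowest and the highest sample were Apelin-KO samples, and the log2 difference was 0.04 (95% interval -0.26 to 0.33, adjusted p = 0.948 from limma).

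Thbd, a gene of 1 exon on chromosome 2 from 148404466 to 148408188, varied more. It was 53.4, 68.2 and 82.7 FPKM in WT and 84.6, 58.6 and 63.2 FPKM in Apelin-KO ECs. WT 1 was lowest, Apelin-KO 1 highest, and the means, 68.1 ± 14.7 and 68.8 ± 13.9 FPKM (SD, n = 3 each), differed by less than either SD. The log2 difference was -0.02, with an interval from -0.49 to 0.46 (adjusted p = 0.986 from limma), which leaves room for a WT level from 0.710 to 1.37 times that in Apelin-KO ECs.

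Plat and Plaur act on the fibrinolytic side. Plat, on chromosome 8 from 22757727 to 22782844, was 121.8, 91.4 and 110.1 FPKM in WT and 94.8, 120.03 and 149 FPKM in Apelin-KO ECs. Apelin-KO 3 was highest and WT 2 lowest, and the groups overlapped, with a log2 difference of -0.15 (95% interval -0.60 to 0.29, adjusted p = 0.819 from limma). Plaur, on chromosome 7 from 24462484 to 24475968, was 97.1, 74.5 and 80.3 FPKM in WT and 80.5, 87.9 and 93.7 FPKM in Apelin-KO ECs. The highest and the lowest sample were both WT samples, and the log2 difference was -0.06 (95% interval -0.37 to 0.25, adjusted p = 0.902 from limma).

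F3, on chromosome 3 from 121723537 to 121735048, encodes tissue factor, which is normally kept low on vessel-lining cells. It was 5.57, 2.51 and 2.15 FPKM in WT 1, 2 and 3, and 1.59, 1.97 and 3.91 FPKM in Apelin-KO 1, 2 and 3. By its longest annotated transcript, of 1872 bases, about 93.9, 37.6 and 32.8 reads lay behind the WT values and about 24.8, 33.5 and 61.6 reads behind the Apelin-KO values. WT 1 stood apart at the top, followed by Apelin-KO 3. Of the 8 tested members, F3 had the largest spread within the genotypes, a standard deviation of 0.53 on the log2 scale, and 96.4% of the genes tested varied less. The log2 difference was 0.31 (95% interval -0.49 to 1.11, adjusted p = 0.794 from limma), and without WT 1 it was -0.013.

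Some members had the same samples at the top, in both genotypes. This was read from the values themselves, and the share of all genes with these samples at the top was not counted. Within the genotypes, 46.9% of the genes tested varied less than Plaur. WT 1, Apelin-KO 3 and Apelin-KO 2 were the 3 highest samples for both Plat and Plaur, and WT 1 and Apelin-KO 3 were the highest for F3. For F3, Apelin-KO 2, at 1.97 FPKM, lay above Apelin-KO 1 only. Thbd was lowest in WT 1, Apelin-KO 2 and Apelin-KO 3. Lyve1, a marker of lymphatic ECs, was 84.8, 24.0 and 29.6 FPKM in WT 1, 2 and 3, and 20.4, 43.6 and 68.2 FPKM in Apelin-KO 1, 2 and 3, so that it too was highest in WT 1, Apelin-KO 3 and Apelin-KO 2. Prox1, the transcription factor that defines lymphatic ECs, was 17.7 FPKM in WT 1, 7.38 FPKM in Apelin-KO 3 and 6.08 to 9.21 FPKM in the other samples. Of the 6 lymphatic markers Lyve1 alone had these 3 samples at the top. WT 1 was highest for 5 of the 6, Lyve1 and Prox1 among them, but the samples after it ran in other orders, and Ccl21a was 39.1 FPKM in Apelin-KO 2 and at most 0.484 FPKM in the others. The summed level of the 6 ranged from 131 to 276 FPKM in WT and from 139 to 225 FPKM in Apelin-KO samples, and none of the markers was at 0. The part of lymphatic ECs in the spread of these members was not tested.

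**Figure D4:**
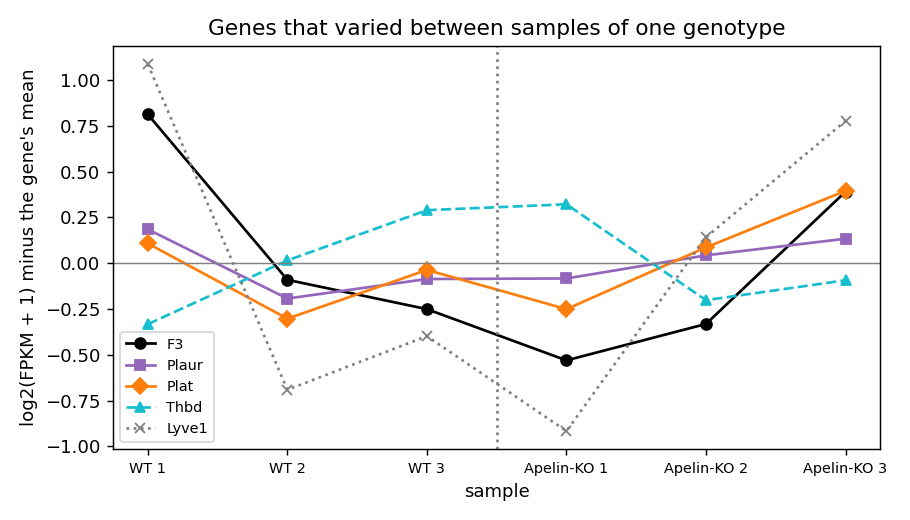
Log2(FPKM + 1) minus the gene's own mean over the 6 samples for F3, Plaur, Plat, Thbd and the lymphatic marker Lyve1. F3, Plaur, Plat and Lyve1 lie above their means in WT 1 and Apelin-KO 3, where Thbd lies below its mean.

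The stretches of 250 bases before the start sites of F3 and Plaur are shown because both genes had WT 1 and Apelin-KO 3 as their highest samples. They come from RefSeq promoter windows on GRCm38.p6, the assembly also called mm10, and are written 5′ to 3′ on the plus strand, on which both genes lie. Capitals mark each match to TGANTCA, a loose form of TGA(C/G)TCA, the core motif of AP-1 (the FOS and JUN family of transcription factors). The loose form reads the same on both strands.
F3, chr3:121723287-121723536: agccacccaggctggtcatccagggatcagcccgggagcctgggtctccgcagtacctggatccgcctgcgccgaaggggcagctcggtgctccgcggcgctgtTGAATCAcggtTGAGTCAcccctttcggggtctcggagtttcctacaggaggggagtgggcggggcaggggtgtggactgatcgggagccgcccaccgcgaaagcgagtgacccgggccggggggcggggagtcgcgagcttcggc
Plaur, chr7:24462233-24462482: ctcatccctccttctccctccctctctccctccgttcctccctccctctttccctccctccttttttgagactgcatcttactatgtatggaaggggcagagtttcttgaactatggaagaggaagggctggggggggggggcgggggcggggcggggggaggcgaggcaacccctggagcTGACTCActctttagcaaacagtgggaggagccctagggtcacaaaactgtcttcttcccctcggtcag

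The F3 window holds 2 matches, which begin 146 and 135 bases before the start site, and the Plaur window holds 1, which begins 69 bases before it. The F3 match at 146 bases fits the loose form only. Windows were found for 6 of the 9 members. Plat, which also had Apelin-KO 3 and WT 1 as its highest samples, Vwf and Thbd had none, and Procr was the other member with a match, although its samples ran in another order. Of 32817 windows of this length in the table, 6.75% hold a match to the loose form. A match describes the sequence only.

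The rest of the pathway was listed in 7 groups by role, 57 genes in all, of which 56 were in the files and 29 passed the filter. None of the 29 had an adjusted p-value under 0.05 (limma). An unadjusted p-value under 0.05 was found for 5 of them, 17.2%, beside the 9.42% of all genes, with 1 higher in WT and 4 higher in Apelin-KO ECs. With the samples centred on the endothelial markers, which shifts every gene alike, 7 passed, all of them higher in WT (Plau, Plgrkt, Lrp1, Axl, Mcfd2, Cd63 and Hps6), as did 2414 of the 2448 genes that then passed among all genes tested. The groups did not overlap for 6 of them, 20.7%, beside the 14.4% of all genes. With WT 1 left out the count of 5 was 0, with Apelin-KO 1 left out it was 1, with WT 2 left out it was 2, and with each gene's own variance it was 3. The median log2 difference of the 29 was 0.05. The clotting factors and fibrinogen chains, which the liver makes, were nearly silent, and the 6 that were above 0 in some sample but under the filter reached at most 0.142 FPKM. F12, F13b, Fga, Fgb, Fgg, Klkb1 and Kng1 were listed at 0 in all 6 samples, and F13a1, the transglutaminase subunit that is also made by macrophages, was the only one of the 14 to pass the filter, with 0.743 to 3.33 FPKM in WT and 0.690 to 1.16 FPKM in Apelin-KO ECs.

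Among the other anticoagulants, Entpd1, an enzyme of the cell surface that removes the platelet agonist ADP, was 114.5, 114.1 and 116 FPKM in WT and 165, 124 and 155 FPKM in Apelin-KO ECs. Every Apelin-KO sample was higher, with a log2 difference of -0.35 (standard error 0.13, unadjusted p = 0.0285, adjusted p = 0.513 from limma). Nt5e, which acts after it to form adenosine, differed by 0.41 in the other direction (adjusted p = 0.679). Anxa5, which shields phosphatidylserine, was at 639 FPKM over all samples and differed by 0.05 (adjusted p = 0.898), and Tfpi2, a relative of Tfpi, was at 44.7 FPKM and differed by 0.05 (adjusted p = 0.966).

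Of the 7 tested genes of fibrinolysis, 1 passed an unadjusted p-value under 0.05, beside 9.42% of all genes, and 2 did not overlap between the groups, beside 14.4% of all genes. The gene that passed was Serpine2, an inhibitor of thrombin and plasminogen activators, with 20.03, 24.4 and 20.8 FPKM in WT and 29.5, 28.4 and 25.4 FPKM in Apelin-KO ECs. The groups did not overlap, and the log2 difference was -0.34 (standard error 0.12, unadjusted p = 0.0226, adjusted p = 0.507 from limma). Anxa2, which with S100a10 forms a surface receptor for Plat and plasminogen, was the most abundant gene of the list, at 1595 to 1675 FPKM in WT and 1734 to 1876 FPKM in Apelin-KO ECs. These groups did not overlap either, with a log2 difference of -0.13 (adjusted p = 0.686), while S100a10, at 511 FPKM over all samples, differed by 0.03 (adjusted p = 0.967). Plau, the ligand of the urokinase receptor, was 3.83 to 6.23 FPKM in WT and 2.53 to 5.89 FPKM in Apelin-KO ECs.

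With the samples centred on the endothelial markers, which shifts every gene alike, the differences were -0.09 for Entpd1, -0.08 for Serpine2, -0.13 for Rab27a and -0.21 for Gas6, and none of the 4 kept an unadjusted p-value under 0.05. That of Anxa2 had the other sign at 0.13.

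**Figure D5:**
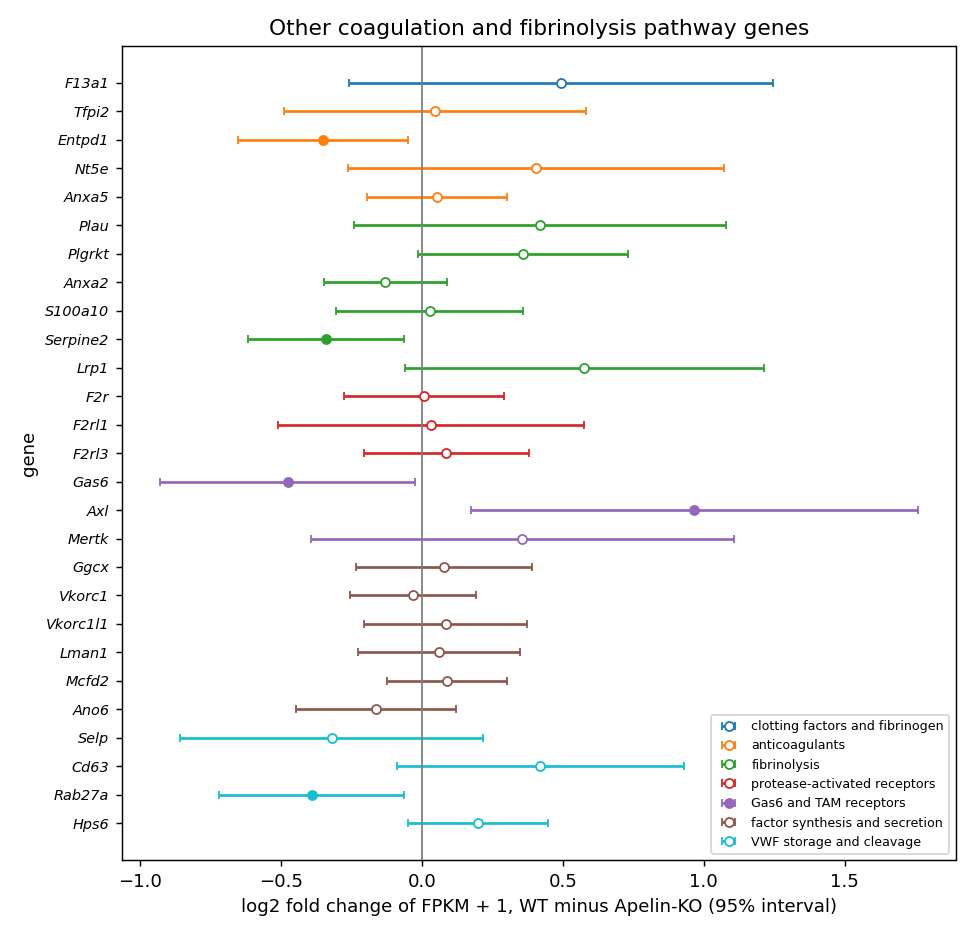
Log2 fold change of FPKM + 1, WT minus Apelin-KO, with 95% intervals from limma for tested pathway genes, coloured by group. Filled points mark the 5 genes with an unadjusted p-value under 0.05, of which Entpd1, Serpine2, Gas6 and Rab27a lie on the negative side of 0 and Axl lies at 0.97.

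Protein S shares its receptors with Gas6, and this group held differences in both directions. Gas6 was 4.88, 6.80 and 7.36 FPKM in WT and 11.03, 7.14 and 9.56 FPKM in Apelin-KO ECs. WT 3 overlapped with Apelin-KO 2, and the log2 difference was -0.48 (standard error 0.19, unadjusted p = 0.0417, adjusted p = 0.521 from limma). Axl, a receptor of Gas6, was 20.9, 24.2 and 9.83 FPKM in WT and 6.04, 10.3 and 9.07 FPKM in Apelin-KO ECs. WT 1 and WT 2 stood apart from the other 4 samples, and the log2 difference was 0.97 (standard error 0.34, unadjusted p = 0.0234, adjusted p = 0.507 from limma). Ptprc and the macrophage markers Adgre1, Csf1r and Itgam had the same order of the 6 samples as Axl. The rest of the 10 macrophage markers ran in other orders, and the share of all genes with this order was not counted. Adgre1 was 11.7, 23.6 and 5.39 FPKM in WT and 2.03, 6.41 and 4.95 FPKM in Apelin-KO ECs. All 10 macrophage markers were higher in WT on average, with a median log2 difference of 1.25. An unadjusted p-value under 0.05 was found for 5 of the 10, beside 9.42% of all genes, and 1 of the 10, Fcgr1, did not overlap between the groups, beside 14.4%. Mertk, a receptor of the same family, differed by 0.36 (adjusted p = 0.748). Fibroblast markers also lay higher in WT, for 7 of 7 tested, with a summed level of 198 to 344 FPKM in WT and 131 to 205 FPKM in Apelin-KO samples. Of these, 4 had an unadjusted p-value under 0.05, beside 9.42% of all genes, and 1, Dcn, did not overlap between the groups, beside 14.4%. Over all genes tested, 47.5% had a difference above 0. Fap, a fibroblast marker under the filter, lay in the other direction without overlap, at 0.043 to 0.133 FPKM in WT and 0.337 to 0.468 FPKM in Apelin-KO samples. Pericyte and smooth muscle markers lay higher in Apelin-KO samples for 6 of 7 tested, with a summed level of 140.3 to 179.6 FPKM in WT and 191 to 217 FPKM in Apelin-KO samples. Most of this sum was Kcnj8 and Abcc9, at 85.5 and 69.1 FPKM over all samples. Of these markers Rgs5 was 3.17 to 3.66 FPKM against 6.83 to 8.67 FPKM. No marker of these 3 lists was at 0 in all 6 samples. The part of macrophage, fibroblast or pericyte RNA in the differences of Axl and the other genes was not tested. Tyro3, a further receptor, was below the filter, with 0.860 to 1.08 FPKM in WT and 0.473 to 0.691 FPKM in Apelin-KO ECs, and did not overlap.

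The thrombin receptor F2r was highly expressed, at 123 ± 14.9 FPKM in WT and 122 ± 7.60 FPKM in Apelin-KO ECs (SD, n = 3 each), with a log2 difference of 0.01 (95% interval -0.28 to 0.29, adjusted p = 0.992 from limma). F2rl3, another thrombin receptor, was at 29.6 FPKM and differed by 0.09 (adjusted p = 0.853). F2rl1, a receptor for trypsin-like proteases, was at 1.01 FPKM. None of the 3 tested receptors of this family passed an unadjusted p-value under 0.05, beside 9.42% of all genes. The 6 genes for the synthesis and export of clotting proteins all passed the filter. None had an unadjusted p-value under 0.05, beside 9.42% of all genes, and 1, Mcfd2, did not overlap between the groups, beside 14.4%. Vkorc1, which recycles the vitamin K that protein S needs, was 74.9 to 78.1 FPKM in WT and 75.2 to 83.7 FPKM in Apelin-KO ECs. Lman1 and Mcfd2 form the receptor that carries factor VIII out of the endoplasmic reticulum. Lman1 was at 55.8 FPKM and differed by 0.06 (adjusted p = 0.901). Mcfd2 was 72.6, 76.4 and 73.9 FPKM in WT and 69.99, 71.8 and 67.8 FPKM in Apelin-KO ECs without overlap, higher in WT as F8 was, with a log2 difference of 0.09 (adjusted p = 0.787). Ano6, a lipid scramblase that exposes phosphatidylserine for clotting, was at 70.7 FPKM and differed by -0.16 (adjusted p = 0.703).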

How the data were processed

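RNA of sorted tumor ECs was sequenced by the authors from stranded mRNA libraries, with single-end reads of 75 bases, and mapped to mm10 with TopHat and Bowtie2. The deposited values are FPKM per gene symbol from Cufflinks 2.2.1, 1 file per sample. The submitters' processing notes and the study's methods give different versions of the mapping tools. The annotation and the strand setting are not given in the sources used here.

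FPKM were used as deposited. From them log2(FPKM + 1) was computed. The 10964 genes averaging 1 FPKM or more went into limma 3.58.1 (R 4.3.3), without covariates, with Benjamini-Hochberg adjustment. The fit was tested on simulated data. F8 was compared with an exact permutation test. Named genes were the 9 members, Apln, listed pathway genes with an unadjusted p-value under 0.05, with groups that did not overlap or among the 3 most abundant of their list, and the 3 genes nearest Vwf. Fundc2, Fcgr1, Fap, Tfpi2, Plgrkt, Lrp1, Plau, Adamts13 and Lman1 were added with their values in view. Among the tested pathway genes, 2 are counted but not reported here singly. The members and lists were chosen with earlier results of these data known. Depth was estimated from the steps of low FPKM in genes with 1 annotated transcript over 700 bases, assuming 200-base fragments, and between 68.30% and 71.84% of low values lay within 0.1 of a whole read, where chance gives 20%. No count test was run on these estimates. Positions are from GENCODE on GRCm38. Alternatives changed the pseudocount, filter, scaling, variance, block and samples.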

Additional observations from a re-analysis of the deposited data

How the results depend on the processing

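No member and no other pathway gene had an adjusted p-value under 0.05 in limma under any alternative run. The 1 member with an unadjusted p-value under 0.05 was 2 without the filter on mean FPKM, with F8 added, and 0 with the endothelial centring and with each gene's own variance, and it ranged from 0 to 1 with a sample left out. The count of other pathway genes was 5 in the main fit and 7 with the endothelial centring. It was 6 with an intensity trend, 3 with each gene's own variance, and 0 to 5 with a sample left out. The genes counted were not always the same. Over all genes, the 1 gene with an adjusted p-value under 0.05 was 2 without the filter, with a mean of at least 5 FPKM and with an intensity trend, and 0 if every gene kept its own variance, and it ranged from 0 to 3 with a sample left out. The 1033 genes with an unadjusted p-value under 0.05 were 2448 with the endothelial centring and 536 to 1228 with a sample left out, and the 567 of these higher in WT were 2414, 376 with each gene's own variance, 330 with a mean of at least 5 FPKM, and 312 to 743. With the endothelial centring, log2 differences turned positive for Thbd (0.24), Tfpi (0.21), Plat (0.11), Plaur (0.20) and Pros1 (0.22), because the centring adds the same amount to every gene, and were 0.30 for Procr, 0.58 for F3 and 0.54 for F8, which was 0.58 with a pseudocount of 0.1. With a sample left out, they ranged from -0.17 to 0.14 for Thbd, -0.054 to 0.13 for Procr, -0.32 to 0.0050 for Plat, -0.17 to 0.018 for Plaur and -0.013 to 0.59 for F3. Vwf and F8 kept their directions throughout, with adjusted p-values of 0.209 to 0.939 for Vwf.

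The labels do not say whether the replicate numbers pair the samples. Correlations of the deviations were -0.14, 0.21 and -0.02 for same-numbered samples, and from -0.20 to 0.21 for differently numbered ones. Deviations sum to 0 within each group of 3, so these values cannot settle whether samples were paired. With the replicate number as a block, the members with an unadjusted p-value under 0.05 were 1, the other pathway genes 4 and all genes 893. For F8 the block was run only together with no filter, chosen after seeing the data, and its adjusted p was 0.599. F8 and F3 rest on at most an estimated 93.9 reads per sample, which limits their precision.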
